A study of Brassica rapa subsp. pekinensis with 6 samples.

Results

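Phenylalanine ammonia-lyase (PAL) and cinnamate 4-hydroxylase (C4H) catalyse the entry steps of the phenylpropanoid pathway, and the transcripts of 10 gene copies for them were compared between sterile and fertile flower buds of Chinese cabbage (Brassica rapa subsp. pekinensis). The copies were taken by identifier from a table of 43354 genes: 6 for PAL, of which Bra005221 and Bra017210 are named PAL1, Bra003126, Bra006985 and Bra039777 PAL2 and Bra029831 PAL4, and 4 for C4H (Bra018311, Bra021636, Bra021637 and Bra022802). These names came with the identifiers and follow the Arabidopsis genes. The deposited tables name no gene, and the RefSeq gene table of Brassica rapa tied 0 of the 10 identifiers to a symbol, so the names were not checked by sequence.

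PAL removes ammonia from phenylalanine to give cinnamic acid, and C4H, a cytochrome P450 in the membrane of the endoplasmic reticulum, hydroxylates cinnamic acid to p-coumaric acid. From p-coumaric acid the pathway branches to lignin, flavonoids, sinapate esters and the phenolic amides found on pollen. In anthers the tapetum, the nurse layer around the developing pollen, supplies phenolic compounds to the pollen wall. Arabidopsis plants that lack several PAL genes are stunted and sterile, and weak alleles of C4H there can cause male sterility.

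The buds came from the line AB01, with 3 sterile and 3 fertile libraries that the series describes as biological replicates, and male sterility in this line is inherited through multiple alleles. Plants of both groups were sown in a greenhouse after vernalization, and total RNA of buds was sequenced. No source used here gives the bud stage, the number of plants behind a library or the kinship of sterile and fertile plants. The p-values therefore set a difference between groups against the variation estimated from these libraries alone. Whole buds hold many cell types, and fewer cells of a type cannot be told apart from less RNA per cell. None of the 12 tapetum and pollen wall genes, 15 later phenylpropanoid genes and 4 flavonoid entry genes listed by symbol matched an identifier, so the labelled tissue was not checked against markers and the later pathway steps were not followed.

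Sterile libraries held 31893913 to 33615379 counts and fertile libraries 27637426 to 35564895. The PAL copies together drew 10080 to 10619 counts in sterile libraries and 15751 to 20463 in fertile libraries. The C4H copies drew 5147 to 5414 counts in sterile libraries and 7184 to 9103 in fertile libraries. Levels below are RPKM, the authors' counts divided by model length and library total. Fold changes are sterile over fertile from edgeR's quasi-likelihood test on the counts, with adjusted p (Benjamini-Hochberg over 33150 genes) under 0.05 as the threshold. That fit rescales libraries by TMM (trimmed mean of M values), with factors of 1.10 to 1.13 for sterile and 0.893 to 0.905 for fertile libraries, so its fold changes lie below the plain ratio of RPKM means. Over all genes the log2 fold changes had a median of 0.31 with library size alone and 0.19 with upper-quartile factors, against 0.00 with TMM, and a change read from RPKM is relative to that shift.

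Transcripts of 7 of the 10 copies fell in sterile buds, that of 1 copy rose, and 2 copies missed the threshold. Of all genes tested 33.3% fell and 29.2% rose, together 62.5%, so a change alone does not set a copy apart. The PAL copies gave 5 falls and 1 copy not past the threshold, and the C4H copies gave 2 falls, 1 rise and 1 copy not past it. With a change of at least 2-fold asked for as well, 4 copies fell and 1 rose, against 15.1% and 6.02% of all genes. The 4 were Bra005221 and Bra029831 for PAL and Bra018311 and Bra021637 for C4H, which are also the 4 most abundant copies of fertile buds, and the riser was the C4H copy Bra021636. The median log2 fold change of the 10 copies was -0.80 and that of all genes 0.00. In TMM-scaled CPM the sterile and fertile libraries did not overlap for any of the 10 copies, a pattern shared by 66.6% of all genes. In RPKM they did not overlap for 9 copies, where the share of all genes was 82%.

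**Figure D1:**
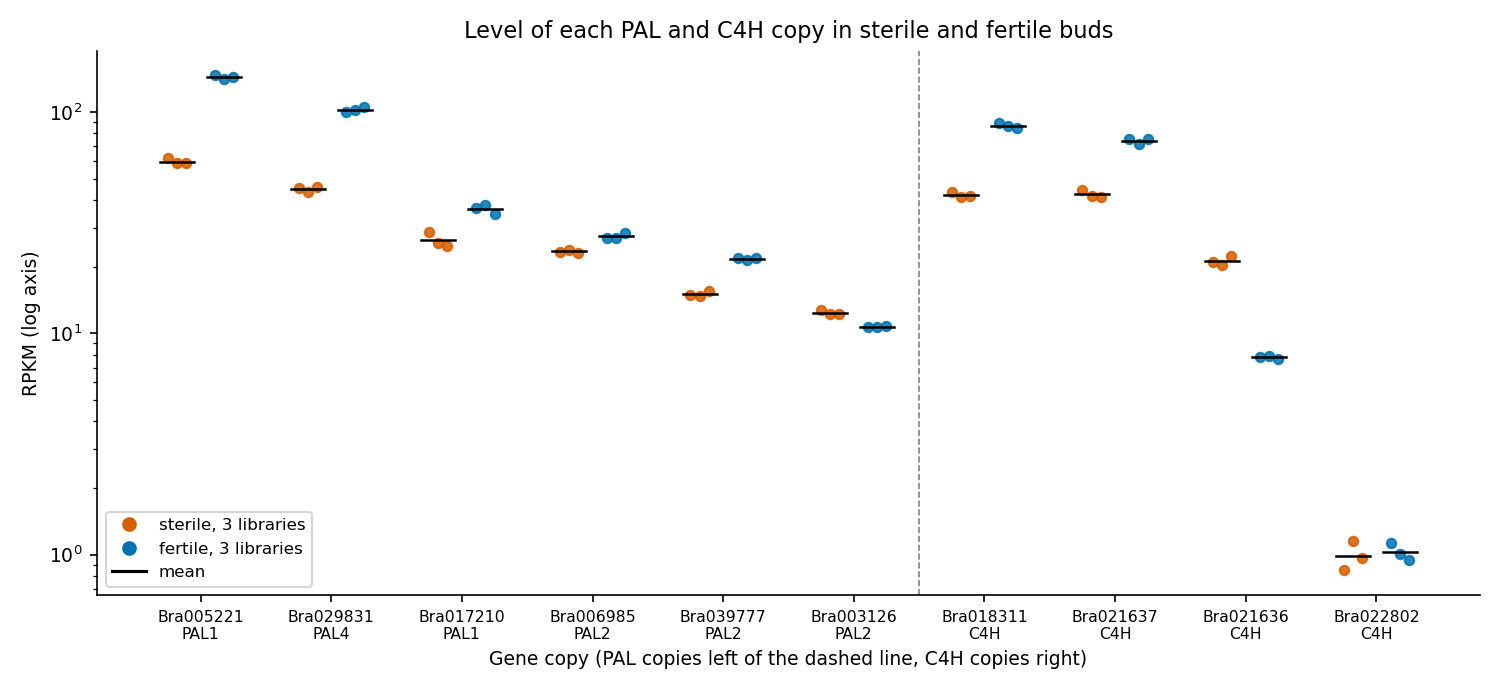
RPKM (log axis) of each PAL and C4H copy in the 3 sterile (orange) and 3 fertile (blue) libraries, with bars at the group means. The 4 copies at 74.3 RPKM or more in fertile buds all lie lower in sterile buds, Bra021636 lies higher in sterile buds, and the libraries of Bra022802 overlap near 1 RPKM.

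PAL1 is one of the main PAL genes of Arabidopsis, and its copy Bra005221 had the highest level per length of all 10 copies in both groups. It stood at 61.9, 58.7 and 58.8 RPKM in sterile buds, against 146.3, 141.5 and 144.4 RPKM in fertile buds. Every sterile library was thus far below every fertile one, and the libraries of each group lay close together. Its log2 fold change was -1.58 ± 0.05 (SE; edgeR adjusted p = 1.0e-15), or 33.6% of the fertile level with TMM (41.5% in RPKM). Among genes with reads its level stood at the 89.8th percentile in sterile buds and at the 96.4th in fertile buds.

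The other PAL1 copy, Bra017210, changed less. It stood at 28.7, 25.5 and 24.9 RPKM in sterile buds, against 37.0, 37.8 and 34.5 RPKM in fertile buds. The groups did not overlap, but sterile replicate 1 was the highest and fertile replicate 3 the lowest of their groups, which brought them nearest to each other. The log2 fold change was -0.77 ± 0.06 (SE; edgeR adjusted p = 8.7e-10), or 58.6% of the fertile level with TMM (72.4% in RPKM). With library size alone the log2 fold change was -0.47, and with upper-quartile factors -0.58.

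PAL4 is a further active PAL of Arabidopsis, and its copy Bra029831 fell almost as far as Bra005221. It stood at 45.3, 43.5 and 45.8 RPKM in sterile buds, against 100.5, 102.3 and 104.9 RPKM in fertile buds, again with no overlap and little spread within a group. The log2 fold change was -1.50 ± 0.06 (SE; edgeR adjusted p = 4.2e-15), or 35.4% of the fertile level with TMM (43.7% in RPKM). By reads rather than by level this was the leading PAL copy, with 9312 counts summed over sterile and 19935 over fertile libraries, against 6522 and 14705 for Bra005221. The gene model of Bra005221 has a coding length of 1116 nt and that of Bra029831 one of 2121 nt, so their order depends on model length.

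PAL2, which acts beside PAL1 in Arabidopsis lignin and flavonoid synthesis, had 3 copies, and these changed by different amounts. Bra039777 stood at 15.0, 14.7 and 15.6 RPKM in sterile buds, against 22.0, 21.4 and 21.9 RPKM in fertile buds. Its log2 fold change was -0.83 ± 0.06 (SE; edgeR adjusted p = 9.9e-11). Bra006985 stood at 23.4, 23.9 and 23.2 RPKM in sterile buds, against 26.8, 27.1 and 28.5 RPKM in fertile buds, and its log2 fold change was -0.54 ± 0.05 (SE; edgeR adjusted p = 1.0e-08). For both, every sterile library lay below every fertile one. The size of the fall depended on the scaling. Bra039777 was at -0.53 with library size alone and -0.65 with upper-quartile factors, and Bra006985 at -0.23 and -0.35.

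The third PAL2 copy, Bra003126, had the lowest level of the PAL copies and no call in the fit. It stood at 12.7, 12.2 and 12.3 RPKM in sterile buds, against 10.6, 10.6 and 10.8 RPKM in fertile buds, so on the RPKM scale every sterile library lay above every fertile one. After TMM scaling the order was the other way, with 24.4, 23.0 and 23.7 CPM in sterile libraries and 25.0, 25.3 and 25.4 CPM in fertile libraries. The log2 fold change was -0.09 ± 0.06 (SE; edgeR adjusted p = 0.17), with a 95% interval of -0.22 to 0.03. It was 0.21 with library size alone (edgeR adjusted p = 0.0027) and 0.10 with upper-quartile factors (edgeR adjusted p = 0.15; range over all alternatives 0.0027 to 0.35), so its direction depended on the scaling. Relative to the median shift of 0.31 under library size alone it was -0.09. Taking off the median nearly returns the TMM value by construction, so this is no separate evidence of its direction.

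**Figure D2:**
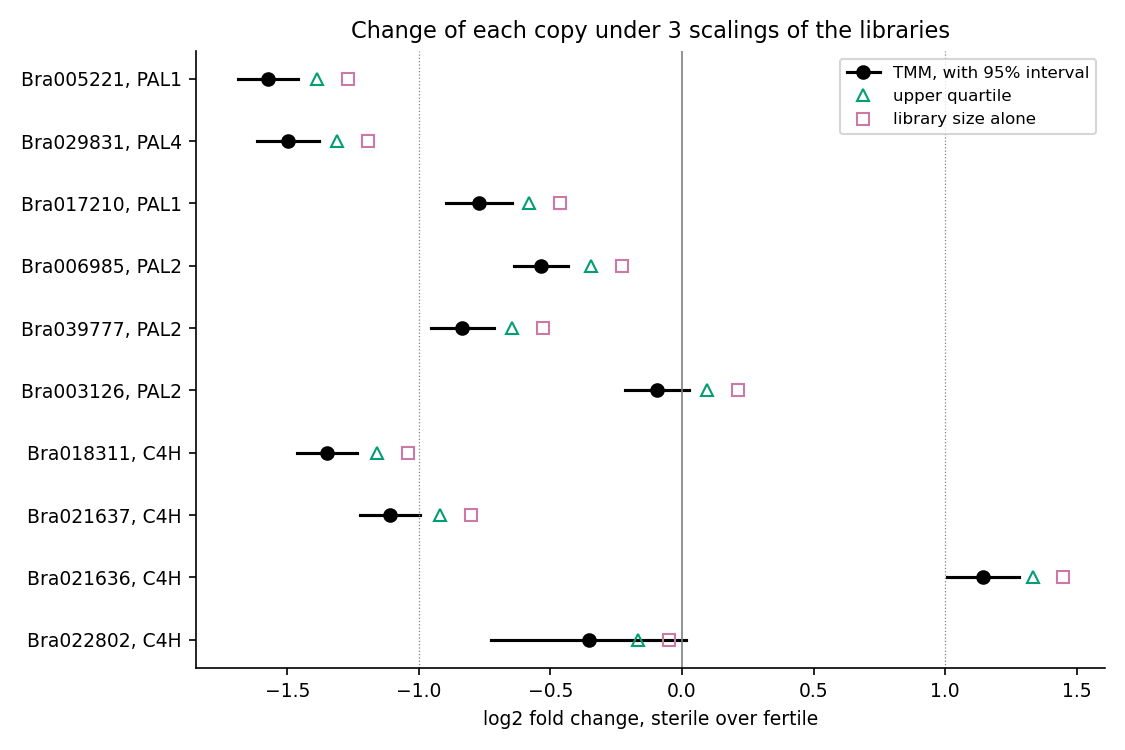
Log2 fold change of each copy, sterile over fertile, with TMM scaling (black points, bars are 95% intervals), upper-quartile factors (triangles) and library size alone (squares); dotted lines mark 2-fold. All scalings left 7 copies past the threshold below 0 and Bra021636 past it above 0. Bra003126 changed sign and was past the threshold, above 0, with library size alone. The TMM intervals of Bra003126 and Bra022802 span 0.

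C4H is encoded by a single gene in Arabidopsis, and of the 4 copies named for it here 2 carried most of the transcript. Bra018311 stood at 43.4, 41.4 and 41.6 RPKM in sterile buds, against 89.4, 86.8 and 84.5 RPKM in fertile buds. Its log2 fold change was -1.35 ± 0.05 (SE; edgeR adjusted p = 1.3e-14), or 39.2% of the fertile level with TMM (48.5% in RPKM). Bra021637 stood at 44.5, 42.0 and 41.3 RPKM in sterile buds, against 75.6, 71.8 and 75.5 RPKM in fertile buds. Its log2 fold change was -1.11 ± 0.05 (SE; edgeR adjusted p = 3.8e-13), or 46.3% of the fertile level with TMM (57.3% in RPKM). Neither copy had a sterile library near the fertile range. With library size alone the log2 fold change of Bra021637 was -0.80 and with upper-quartile factors -0.92, so that 3 copies and not 4 were at least 2-fold lower under those scalings.

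Bra021636, which carries the identifier next to Bra021637 and a model of the same coding length (1518 nt), went the other way. It stood at 21.0, 20.4 and 22.3 RPKM in sterile buds, against 7.82, 7.88 and 7.63 RPKM in fertile buds. All sterile libraries were well above all fertile ones, and the reads behind these values numbered 1000 to 1137 per sterile library and 328 to 412 per fertile library. The log2 fold change was 1.14 ± 0.07 (SE; edgeR adjusted p = 5.7e-12), which is 2.21-fold higher, and lay at the 95.1st percentile of all genes tested. It was above 0 under every scaling run, at 1.14 with both TMM and RLE size factors, 1.45 with library size alone and 1.33 with upper-quartile factors. The sources used here do not say how reads that match more than 1 copy were counted, and reads shared with Bra021637 or Bra018311 were not tested for.

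The last C4H copy, Bra022802, had the fewest reads, with 41, 56 and 49 counts in sterile libraries and 47, 43 and 51 in fertile libraries. Its level was 0.850, 1.15 and 0.964 RPKM in sterile buds and 1.12, 1.01 and 0.948 RPKM in fertile buds, and the groups overlapped on this scale. The spread between libraries was 15.1% of the mean in sterile and 8.75% in fertile buds, where counting error alone gives 14.3% and 14.6%. The log2 fold change was -0.35 ± 0.18 (SE; edgeR adjusted p = 0.089), with a 95% interval of -0.72 to 0.02. A difference of the fitted size did not pass at this depth, and the interval does not reach a 2-fold change in either direction.

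The deposited RPKM, tested with limma on log2(RPKM + 1), called 7 copies lower and 2 higher in sterile buds, where 19.9% of 30204 genes were lower and 61.1% higher, together 81%. The 7 were those that fell in the count test. The 2 were Bra021636, at a log2 fold change of 1.34 ± 0.06 (SE; limma adjusted p = 5.3e-09), and Bra003126, at 0.20 ± 0.05 (SE; limma adjusted p = 0.0066), below the median of 0.27 for all genes on this scale. Bra022802 was not past the threshold (limma adjusted p = 0.76). Both tests rest on the same reads.

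Sterile and fertile buds shared most of the order of levels. Among the PAL copies the order in both groups was Bra005221, Bra029831, Bra017210, Bra006985, Bra039777 and Bra003126, and no neighbours in it overlapped between their 3 libraries. All steps but 1 were flatter in sterile buds: Bra029831 exceeded Bra017210 by 1.70-fold in sterile and by 2.82-fold in fertile buds. The exception was Bra006985 over Bra039777, at 1.56-fold in sterile and 1.26-fold in fertile buds. Among the C4H copies Bra021637 and Bra018311 overlapped in sterile buds, at means of 42.6 and 42.1 RPKM, whereas Bra018311 led in fertile buds, at 86.9 against 74.3 RPKM. Bra021636 was ninth of the 10 copies in fertile buds, below Bra003126, and seventh in sterile buds, above Bra039777.

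The summed level of each enzyme's copies was lower in sterile buds, and the copies took different shares of it. PAL summed to 186.9, 178.3 and 180.5 RPKM in sterile libraries, against 343.3, 340.7 and 345.0 RPKM in fertile libraries, a log2 ratio of -0.91. C4H summed to 109.8, 104.9 and 106.1 RPKM in sterile libraries, against 173.9, 167.5 and 168.6 RPKM in fertile libraries, a log2 ratio of -0.67. Divided by the TMM factors the ratios were -1.22 and -0.97. Summed PAL was 1.70 ± 0.0015 times summed C4H in sterile buds and 2.02 ± 0.039 times in fertile buds (SD, n = 3 each). The sums and their ratio depend on model length, which was 1116 nt for Bra005221 and 2121 nt for Bra029831. They describe the copies and were not tested.

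Within PAL the shares of the abundant copies were lower in sterile buds. Bra005221 made up 32.8% ± 0.27 of summed PAL RPKM in sterile buds and 42.0% ± 0.56 in fertile buds, and Bra029831 made up 24.7% ± 0.62 in sterile and 29.9% ± 0.56 in fertile buds (SD, n = 3 each). The shares of the other copies were higher in sterile buds, with Bra003126 at 6.81% ± 0.012 in sterile and 3.12% ± 0.013 in fertile buds. Within C4H the share of Bra021636 was 19.9% ± 1.00 in sterile and 4.58% ± 0.11 in fertile buds, and that of Bra018311 was 39.4% ± 0.19 in sterile and 51.1% ± 0.88 in fertile buds (SD, n = 3 each). Shares are ratios within a library, so scaling between libraries does not move them, but they weight each copy by its model length.

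**Figure D3:**
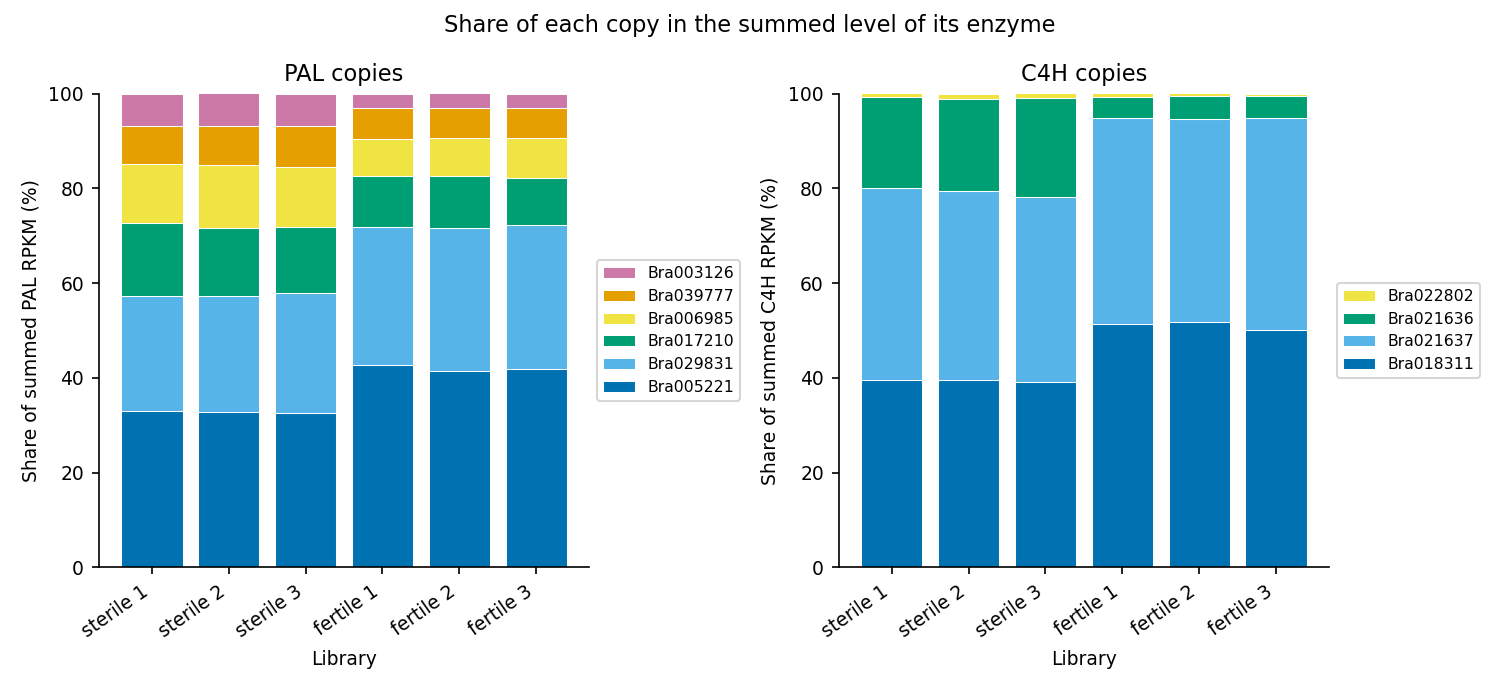
Share of each copy in the summed RPKM of PAL (left) and C4H (right) in every library, as stacked percentages. The 3 libraries of a group are alike, Bra005221 takes less of PAL in sterile buds (32.8% against 42.0% in fertile buds), and Bra021636 takes more of C4H (19.9% against 4.58%).

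Whether copies of the same enzyme name changed unequally was asked of the ratio between copies in each library, for all 10 pairs within PAL1, PAL2 and C4H. Bra005221 exceeded Bra017210 by 2.27-fold in sterile and by 3.95-fold in fertile buds, a difference of log2 ratios of -0.80 ± 0.06 (SE). Among the PAL2 copies, Bra039777 over Bra003126 differed by -0.74 ± 0.03, Bra006985 over Bra003126 by -0.44 ± 0.03 and Bra006985 over Bra039777 by 0.30 ± 0.05 (SE). The widest gap was in C4H: Bra018311 exceeded Bra021636 by 1.98-fold in sterile and by 11.0-fold in fertile buds, a difference of -2.48 ± 0.05 (SE). Bra021637 exceeded Bra021636 by 2.00-fold in sterile and by 9.45-fold in fertile buds, a difference of -2.24 ± 0.07 (SE).

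The abundant C4H copies differed least, with Bra018311 over Bra021637 at 0.990-fold in sterile and 1.17-fold in fertile buds, a difference of log2 ratios of -0.24 ± 0.04 (SE). Pairs with Bra022802 rest on its few reads, and differed by -0.98 ± 0.14 for Bra018311, -0.74 ± 0.15 for Bra021637 and 1.49 ± 0.15 for Bra021636 (SE). For each of the 10 pairs the sterile ratios lay wholly on 1 side of the fertile ones, which gives a two-sided exact permutation p of 0.1 (adjusted over 10 pairs 0.1), the smallest that 3 against 3 libraries allow. No pair could therefore reach 0.05. Pairs that share a copy are not independent of each other.

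The coding lengths recovered from the tables differed more among the PAL copies than among the C4H copies. Among the PAL copies, Bra017210, Bra003126, Bra006985 and Bra029831 had 2169, 2124, 2121 and 2121 nt, whereas Bra039777 had 1533 nt and Bra005221 had 1116 nt. The C4H models had 1518 nt in 3 cases and 1512 nt in Bra022802. Whether the short PAL models are partial was not tested, and their levels per length hold for the part modelled. A fold change of a copy between groups does not depend on its length.

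The extent of the falls was set beside genes of like level. The first range ran between the fertile means of Bra021637 and Bra005221 (74.3 to 144.1 RPKM). It was drawn around the 4 copies that fell at least 2-fold, so that all 4 did so was fixed by the choice of range. Of 1648 other genes in it, 16.99% fell by at least 2-fold in sterile buds and their median log2 fold change was -0.08. Of 11826 other genes between Bra021636 and Bra017210 (7.78 to 36.4 RPKM), 1.56% were at least 2-fold higher and 11.6% at least 2-fold lower, and of the 5 copies in that range Bra021636 was higher by that much while the other 4 differed by less than 2-fold. Both ranges were set from the copies' own levels and changes, so the copies were not tested against these shares. They also rank genes by their fertile level, which favours genes higher in fertile buds.

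**Figure D4:**
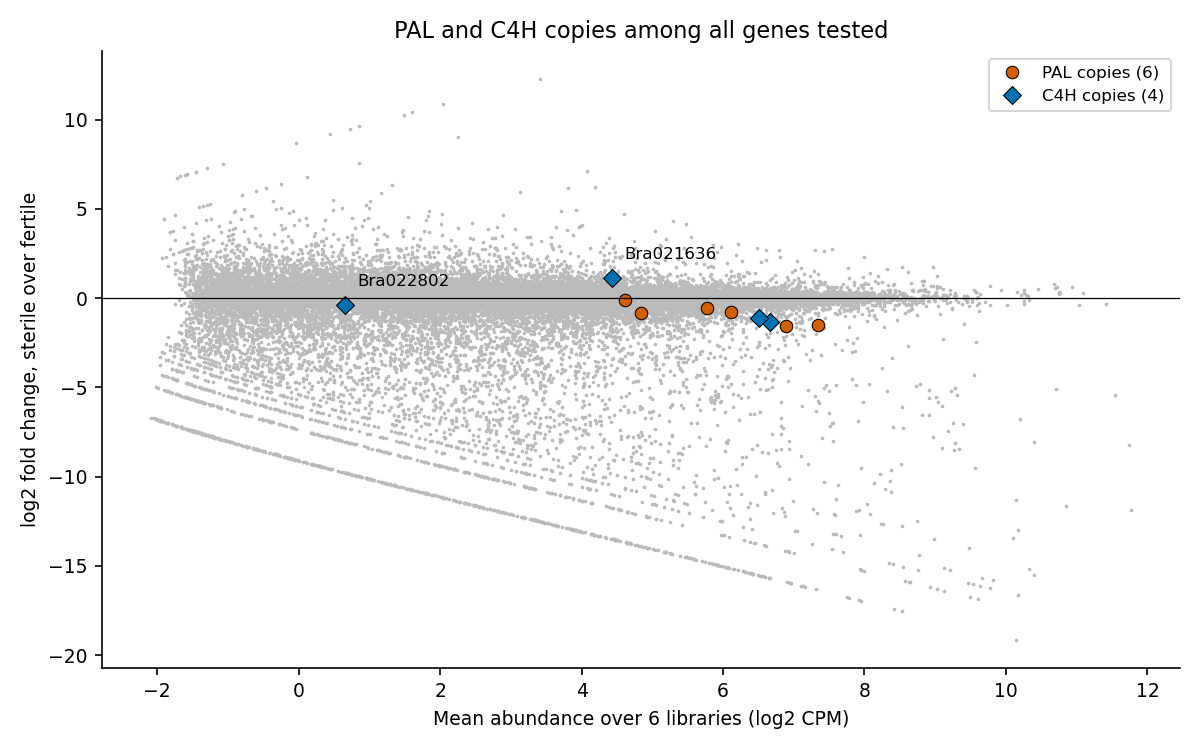
Log2 fold change, sterile over fertile, against mean abundance (log2 CPM) for all 33150 genes tested (grey), with the 6 PAL copies as circles and the 4 C4H copies as diamonds. The PAL and C4H copies lie between -1.58 and 1.14, inside the broad cloud of genes and far above the lowest values.

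The genes with the nearest profile over the 6 libraries were found by Euclidean distance of log2(RPKM + 1) among 30193 other genes, for the most abundant copy of each enzyme. Bra039234 was nearest to Bra005221 (distance 0.19), with 62.8 ± 2.01 RPKM in sterile and 148.1 ± 5.35 RPKM in fertile buds (SD, n = 3 each). Bra002692 was nearest to Bra018311 (distance 0.13), with 40.2 ± 0.90 RPKM in sterile and 86.9 ± 0.047 RPKM in fertile buds (SD, n = 3 each). The next genes followed at distances of 0.22 and 0.15. With 2 groups of libraries such a profile amounts to little more than a pair of levels, and neither identifier has a name in the tables used.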

How the data were processed

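Buds of 3 sterile and 3 fertile samples, grouped by the genotype label, were analysed from 2 tables of the whole series. The deposited counts are raw reads per gene model, per the file headers. The deposited RPKM values, per the file headers, equal those counts divided by 1 length per gene and by the library total. Per the submitters' processing notes the tools included Bowtie2 2.0.6 and TopHat2 2.0.9; their roles, the read counter, its strand setting, the build and the annotation are not stated there or in the labels.

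Counts were tested in edgeR 4.0.16 (R 4.3.3) after filterByExpr with TMM, RPKM in limma 3.58.1 (trend, log2(RPKM + 1), RPKM of at least 1 in 3 libraries). The SE of an edgeR value is the log2 fold change over the square root of F, an approximation. That of a limma value is limma's moderated SE, and that of a copy ratio comes from the variances of the 3 sterile and 3 fertile log2 ratios. Copy ratios used RPKM + 0.1. The edgeR and limma tests were checked on simulated data in which few genes changed, in directions drawn at random, so the choice of scaling was not checked. DESeq2 1.42.0, other scalings, filters and pseudocounts, a replicate block and leaving out each library were alternatives. Molecular identifiers are not mentioned in the labels, and the counting errors given cover counting alone. All 10 copies are named; the nearest gene of the most abundant copy per enzyme was named by a fixed rule. The copies and lists were chosen with earlier results of these data known.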

Additional observations from a re-analysis of the deposited data

How the results depend on the processing

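Of the 320 alternative values of single copies and copy pairs, 316 kept their direction and, where tested, their call, and 4 changed sign. Those were Bra003126 at 0.21 when libraries were scaled by size alone and at 0.10 by upper quartile, and the RPKM log2 fold change of Bra022802 at 0.0043 without fertile replicate 1 and 0.020 without sterile replicate 1, against -0.03 with all libraries; its lowest value, without sterile replicate 2, was -0.087. The alternatives to the count test gave 7 copies lower throughout, apart from 4 when a 2-fold change was asked for as well, and 1 copy higher, apart from 2 with library size alone, which added Bra003126. Leaving out each library in turn gave 7 lower and 1 higher in counts, and 7 lower and 2 higher in RPKM. The summed log2 ratio ran from -0.93 to -0.90 for PAL and from -0.69 to -0.65 for C4H when a library was left out. It was -1.22 and -0.97 after division by TMM factors, and -0.70 and -0.36 without the most abundant copy, an alternative added after seeing the data, as was centring. A replicate block changed no call, with 7 copies lower and 1 higher in counts and 7 and 2 in RPKM. Same-numbered libraries correlated at 0.045, -0.10 and 0.20 in their deviations from group means, and not every library matched its own number best, so numbers were not read as pairing the libraries. Depth limits Bra022802 most, at 41 to 56 counts per library, and its counting error exceeded the spread between libraries in fertile buds only. For Bra003126 counting error (3.41% in sterile, 3.80% in fertile buds) exceeded that spread (2.31% and 0.695%) in both groups. The same held for Bra039777 in both groups, for Bra006985 in sterile buds and for Bra021636 in fertile buds, so it does not set Bra003126 apart.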
